A study of Mus musculus with 23 samples.

Results

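The genes described are the alpha and beta variable genes of the mouse T cell receptor, taken as every row of the count table whose symbol begins with Trav or Trbv followed by a digit. They number 130 of 22488 genes: 108 Trav genes and 22 Trbv genes. They are the same 130 genes with such symbols that GENCODE M21 annotates as variable genes and not as pseudogenes. The 33 annotated pseudogenes of these families were not among them. The Trav genes lie on chromosome 14 and the Trbv genes on chromosome 6, with Trbv31 alone on the minus strand among the Trbv genes. The libraries were built at decreasing input with a low-input protocol (EASY-RNASeq), in which RNA is reverse transcribed from an oligo(dT) primer, made double-stranded and fragmented by the Tn5 transposase. 12 libraries came from CD3+ T cells of the spleen, 3 each from 100, 500, 1000 and 10000 cells. RNA diluted to known amounts gave the other 11, 2 at 0.1 ng and 3 each at 0.5, 1 and 5 ng. All are labelled strain C57 and an age of 6 to 18 weeks, with no genetic change or treatment. The labels disagree on the source of the RNA: spleen in the series text, and the mouse macrophage line raw 264.7 among the characteristics of the samples.

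A T cell builds its receptor by joining 1 variable gene to joining segments, and for the beta chain also a diversity segment, by DNA recombination. The joined exon is spliced to a constant exon, Trac for alpha and Trbc1 or Trbc2 for beta, so the variable sequence lies at the 5′ end of the transcript. The cells of a T cell clone therefore use the same variable genes, which other clones can use too. The variable genes counted in a sample sum over its clones. The mouse alpha locus holds a repeated block of variable genes, whose copies carry d or n in their symbols, whereas most beta variable genes are single.

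The following sequences show how far the members can be told apart. All come from GENCODE M21 transcripts on the GRCm38 assembly, read 5′ to 3′. Each 90-base stretch ends at the TGT triplet nearest the 3′ end of the transcript, and capitals mark positions at which the genes of a set differ. The beta genes of subgroup 13 differ at many positions.
Trbv13-1: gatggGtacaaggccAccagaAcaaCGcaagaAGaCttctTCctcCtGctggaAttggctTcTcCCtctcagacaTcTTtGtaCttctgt
Trbv13-2: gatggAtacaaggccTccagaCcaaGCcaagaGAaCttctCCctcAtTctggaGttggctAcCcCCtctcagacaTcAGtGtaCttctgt
Trbv13-3: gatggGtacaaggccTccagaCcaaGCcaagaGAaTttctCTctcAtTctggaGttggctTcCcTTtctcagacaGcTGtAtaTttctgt

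Over these 90 bases Trbv13-1 and Trbv13-2 were 83.3% identical, Trbv13-1 and Trbv13-3 78.9%, and Trbv13-2 and Trbv13-3 88.9%. The alpha set below shows the other situation: Trav9-2 differs from its d and n copies at 2 of the 90 bases, and the copies do not differ from each other.
Trav9-2: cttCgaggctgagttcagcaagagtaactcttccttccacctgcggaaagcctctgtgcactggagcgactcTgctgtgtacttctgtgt
Trav9d-2: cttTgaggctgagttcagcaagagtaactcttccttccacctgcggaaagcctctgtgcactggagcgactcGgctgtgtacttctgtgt
Trav9n-2: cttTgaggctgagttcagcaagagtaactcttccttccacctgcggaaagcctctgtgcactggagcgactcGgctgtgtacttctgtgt

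Trav11 and Trav11d, the genes of the invariant alpha chain of natural killer T cells, are shown because they are identical over the whole stretch.
Trav11: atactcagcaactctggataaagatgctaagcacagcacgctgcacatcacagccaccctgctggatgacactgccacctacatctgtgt
Trav11d: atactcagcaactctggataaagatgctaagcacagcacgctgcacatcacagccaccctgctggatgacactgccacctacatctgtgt

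The counts per library summed over all genes ran from 1737067 to 7908638, and values are given below as counts scaled to a common total (CPM). T cell markers (9 genes, among them Cd3e and Lck) summed to 2602 to 4729 CPM in the T cell libraries and 963 to 1294 CPM in the RNA libraries. B cell markers (6 genes) summed to 10707 to 16615 CPM and macrophage markers (5 genes) to 1770 to 2176 CPM in the RNA libraries, so these held transcripts of several blood cell types and not those of a macrophage line alone. Replicate 3 at 100 cells stood apart: its B cell markers summed to 5556 CPM against 225 and 271 CPM in replicates 1 and 2, and its Y-linked genes to 184 CPM against 0 and 4.33 CPM. Y-linked genes summed to at most 4.33 CPM in the other T cell libraries and to 287 to 456 CPM in the RNA libraries. In bulk libraries such as these, fewer cells that use a gene cannot be told apart from less RNA per cell.

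Beta variable genes were counted more often than alpha variable genes in every library, though they are fewer. At 10000 T cells the 22 Trbv genes summed to 268 ± 11.9 CPM (SD, n = 3) and the 108 Trav genes to 138 ± 11.3 CPM. Per kilobase of annotated exon this was 31.1 CPM for Trbv and 3.29 CPM for Trav. Olfactory and vomeronasal receptor genes, which spleen cells are not known to express and which serve as a background, gave 0.624 CPM per kilobase in the same libraries. The 95th percentile of single genes of that background was 1.22 CPM per kilobase, and 18 of 22 Trbv genes and 60 of 108 Trav genes lay above it. At 5 ng RNA the background percentile was 0.147 CPM per kilobase, and 19 Trbv and 63 Trav genes lay above it.

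Across the T cell inputs the summed Trbv level was 212 ± 79.6 CPM at 100 cells, 239 ± 5.16 at 500 and 349 ± 32.0 at 1000 (n = 3 each). The 3 libraries at 100 cells had 243, 271 and 122 CPM, the lowest being replicate 3, without which the mean was 257 CPM. The 1000-cell libraries, at 313, 365 and 370 CPM, lay above all 3 libraries of 10000 cells, at 281, 257 and 267 CPM. The Trav genes summed to 101 ± 16.7 CPM at 100 cells (97.8 without replicate 3), 124 ± 8.18 at 500 and 167 ± 23.7 at 1000. These sums over members were not tested.

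**Figure D1:**
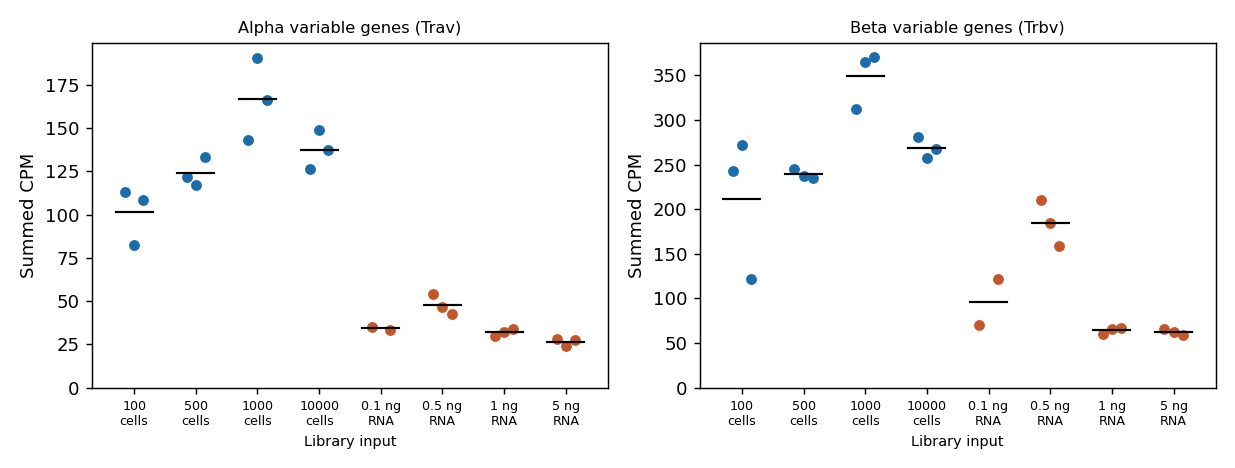
Summed CPM of the 108 Trav genes (left) and the 22 Trbv genes (right) by library input. Points are libraries (blue, T cells; orange, diluted RNA) and bars are group means; the 3 Trbv points at 0.5 ng, 159 to 210 CPM, sit above all other RNA libraries.

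The RNA series asked how the libraries change when the same material is diluted, and here the beta variable genes were far higher at 0.5 ng than at 5 ng. The Trbv genes summed to 210, 185 and 159 CPM in the 3 libraries at 0.5 ng and to 65.8, 62.1 and 59.4 CPM at 5 ng. At 1 ng they summed to 60.5, 65.2 and 66.3 CPM, overlapping the 5 ng libraries. At 0.1 ng the 2 libraries had 69.8 and 121 CPM. The Trav genes showed a smaller difference of the same direction, with 54.0, 46.6 and 42.7 CPM at 0.5 ng against 27.9, 23.9 and 27.7 CPM at 5 ng, and 29.6, 32.2 and 33.8 CPM at 1 ng.

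The constant and other parts of the same receptor did not show this difference. Trac had 174 ± 17.4 CPM at 0.5 ng and 167 ± 4.05 CPM at 5 ng (log2 fold change 0.06, SE 0.0867, adjusted p = 0.765, edgeR, quasi-likelihood test, adjusted over all genes tested after Benjamini and Hochberg, as in all tests that follow). Trbc1 and Trbc2 together had 292 ± 15.0 CPM and 322 ± 18.6 CPM. The 13 beta joining genes (Trbj) summed to 18.1 ± 4.05 and 14.9 ± 3.71 CPM, and the 51 alpha joining genes (Traj) to 43.0 ± 4.87 and 44.8 ± 6.77 CPM. Cd3d, Cd3e, Cd3g and Cd247, which carry the signal of the receptor, did not pass the test. Immunoglobulin variable genes, which are recombined in B cells in the same manner, were also not higher: the 100 Igkv genes summed to 2796 ± 54.3 CPM at 0.5 ng and 2960 ± 97.5 CPM at 5 ng, and the 113 Ighv genes to 1427 ± 31.8 and 1505 ± 34.7 CPM.

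Counts of variable genes divided by counts of their own constant genes compare the inputs without the library total. The beta ratio was 0.683, 0.633 and 0.572 at 0.5 ng and 0.192, 0.197 and 0.193 at 5 ng. It was 0.177, 0.197 and 0.204 at 1 ng, and 0.196 and 0.577 in replicates 1 and 2 at 0.1 ng, so 1 of those 2 libraries lay with the 0.5 ng group. All 12 T cell libraries had a beta ratio between 0.163 and 0.247. The alpha ratio lay between 0.259 and 0.286 in the 0.5 ng libraries and was 0.279 and 0.285 in those of 0.1 ng. In the 1 ng libraries it lay between 0.152 and 0.174, and in the 5 ng libraries between 0.140 and 0.170. The 0.1 ng libraries had 35.2 and 33.4 CPM of Trav genes, close to the 1 ng libraries, and 123 and 120 CPM of Trac, below the 163 to 195 CPM of the 1 and 5 ng libraries. At 0.1 ng the background of olfactory and vomeronasal genes was 0.313 CPM per kilobase, beside 0.819 for Trav genes. At 1 ng these were 0.0353 and 0.761. The alpha ratio reached 0.110 to 0.242 in the T cell libraries. Replicates 1 and 2 at 0.1 ng also differed in the constant genes, with 356 and 211 CPM of Trbc1 plus Trbc2.

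**Figure D2:**
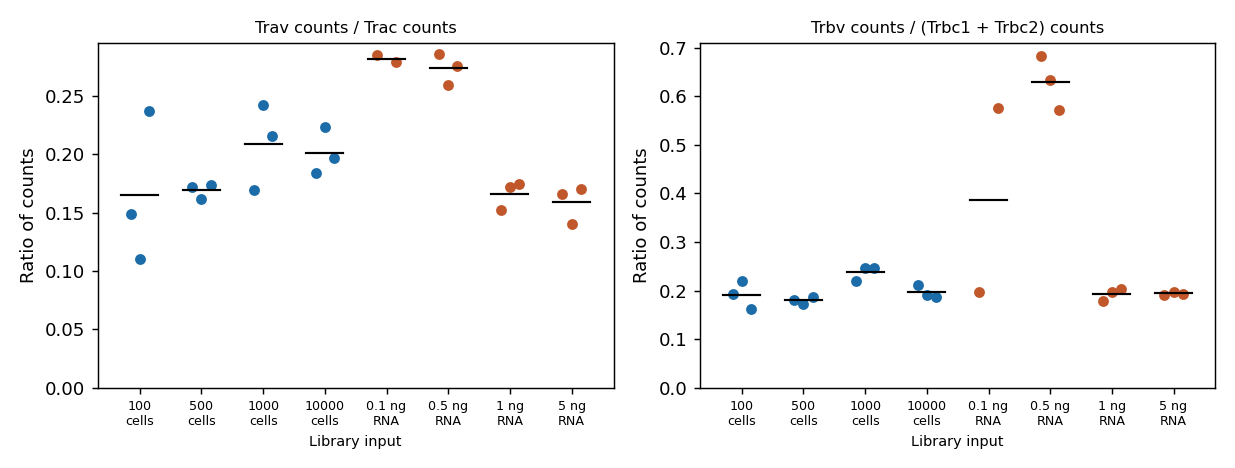
Counts of variable genes over counts of the constant genes of the same chain, alpha on the left and beta on the right, by library input. Points are libraries and bars group means; the beta ratio lies at 0.572 to 0.683 in the 0.5 ng libraries and 1 library of 0.1 ng reaches 0.577, while all T cell libraries and the 1 and 5 ng libraries stay at or below 0.247.

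Gene by gene, 8 of 22 Trbv genes rose at 0.5 ng against 5 ng and none fell. Of the 22, 18 passed the filter on low counts, while 1 of 108 Trav genes did (Trav12-2, 2.42 ± 0.405 CPM at 0.5 ng and 0.806 ± 0.0773 CPM at 5 ng, adjusted p = 0.306 by edgeR). Over all 12558 genes tested, 2.87% were called higher, 2.21% lower and 5.09% in either direction. Some of the 18 passed through the 0.5 ng libraries, where they are high: 13 Trbv genes passed at 1 against 5 ng, and Trbv21 had no count at 5 ng. With no filter, over all 22 Trbv genes, the mean CPM at 0.5 ng was above that at 5 ng in 21, beside 47.3% of the 20186 genes counted in any of the 6 libraries. In 17 of the 22, all 3 libraries at 0.5 ng lay above all 3 at 5 ng, which held for 8.42% of those genes, and in 0 did they lie below, which held for 10.9%. Of the 108 Trav genes, 74 were counted in these libraries, and 9 lay above and 1 below without overlap. Members of 1 library share its RNA and its preparation, so the genes are not independent measurements.

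The calls were spread over the locus and over subgroups. Trbv13-1 had 21.0, 15.4 and 17.0 CPM at 0.5 ng against 5.85, 3.74 and 4.17 CPM at 5 ng (log2 fold change 1.95, SE 0.330, adjusted p = 0.00158, edgeR). Its relative Trbv13-3 had 15.6, 17.5 and 8.37 CPM against 2.34, 4.40 and 3.54 CPM (2.00, SE 0.410, adjusted p = 0.00677, edgeR). Neither gene overlapped between the groups. The third gene of the subgroup, Trbv13-2, had 14.2, 10.9 and 23.2 CPM against 7.60, 5.61 and 8.98 CPM and did not pass (1.11, SE 0.339, adjusted p = 0.0628, edgeR). Trbv31, the only beta gene in inverted orientation, had 13.4, 12.5 and 7.56 CPM against 2.34, 0.534 and 1.14 CPM (3.06, SE 0.560, adjusted p = 0.00286, edgeR).

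Trbv21 had 15, 12 and 7 counts in the 3 libraries at 0.5 ng and no count at 5 ng, and was at least 21.0-fold higher with the 5 ng group set to 3 counts in all (adjusted p = 0.00924, edgeR). Trbv21 was almost uncounted in T cells, with 8 counts in the 12 T cell libraries together. Its mean share of Trbv counts was 0.948% at 0.1 ng, 1.49% at 0.5 ng and 0.549% at 1 ng. The means at 0.1 and 1 ng each rested on a few counts in a single library, with none in the rest of the group. Trbv14 had 10.5, 10.9 and 4.05 CPM at 0.5 ng against 1.02, 2.00 and 1.39 CPM (2.50, SE 0.597, adjusted p = 0.0172, edgeR). Trbv12-1, with 14.4, 7.33 and 6.75 CPM against 2.63, 1.47 and 2.91 CPM, was higher by 2.01 (SE 0.515, adjusted p = 0.0273, edgeR). Trbv16 and Trbv3 were called as well, at log2 fold changes of 1.68 and 1.29.

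The ends of the 4 genes with the largest fold changes are shown to compare them. Each is the 30 bases that end at the TGT triplet nearest the 3′ end, in capitals. A TGT triplet, which encodes the conserved cysteine before the third complementarity-determining region where it is in frame, was found on the coding strand in the last 30 bases of 22 of 22 Trbv and 103 of 108 Trav transcripts.
Trbv21: aagctaacagattcagctgtgtacttcTGT
Trbv31: cttctcagccactctggcttctacctcTGT
Trbv14: aagcagggcgacacagccacctatctcTGT
Trbv12-1: gaactggaggactctgctatgtacttcTGT

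The number of calls depended on the model and on single libraries. DESeq2 called 15 members, beside 1324 of 20186 of all genes. A single fit of all RNA inputs called 0, with 13 members at an unadjusted p under 0.05, and it called 34 of 13948 of all genes. Without replicate 1, 2 or 3 at 5 ng, edgeR called 3, 3 and 4 members. The same fits called 172 of 12520, 206 of 12488 and 202 of 12497 of all genes, against 639 of 12558 with all libraries. At 1 ng against 5 ng edgeR and DESeq2 both called 0 of the members (14 tested by edgeR, 2 of them at an unadjusted p under 0.05; 0.0238% of all genes were called). At 0.1 ng against 5 ng edgeR called 0 of 18 (5 at an unadjusted p under 0.05; 11.2% of all genes were called) and DESeq2 called 2. Without replicate 1 or replicate 2 at 0.1 ng edgeR called 7 of 26 in each case, the lone library being assumed to vary like the 5 ng group. Of these, 6 were higher and 1 lower without replicate 1, and 2 were higher and 5 lower without replicate 2. The same fits called 7869 of 14906 and 8075 of 14857 of all genes, a larger share than among the members.

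Marker genes of several cell types also differed between 0.5 and 5 ng, without overlap of the libraries. The sum of the T cell markers ranged from 1164 to 1186 CPM at the lower input and from 1215 to 1294 CPM at the higher. B cell markers ranged from 13030 to 13624 and from 15465 to 16615 CPM, and erythroid markers (4 genes) from 2185 to 2208 and from 2890 to 2986 CPM. Neutrophil markers ranged from 3757 to 3992 and from 4422 to 4622 CPM. Y-linked genes went the other way, from 387 to 456 CPM at 0.5 ng and from 314 to 361 CPM at 5 ng. The part of these differences in the Trbv result was not tested. The order of the Trbv genes was alike at the 2 inputs, with a Spearman rho of 0.839 between mean shares over 22 genes, as a description.

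The next comparison asked which variable genes the T cells used. Shares below are of the counts of a chain in a library, not corrected for length, and means weight the 12 T cell libraries equally. Trbv13-2 led the beta chain with a mean share of 12.5% (range 8.03 to 17.3%), followed by Trbv3 (10.4%), Trbv19 (8.33%), Trbv16 (8.23%), Trbv12-2 (8.13%), Trbv2 (7.02%), Trbv1 (6.29%) and Trbv13-3 (5.30%). The ranges of neighbours in this order overlapped. The 3 genes of subgroup 13 together took 22.9% of Trbv counts. At the other end, Trbv4 and Trbv5 had 6 and 11 counts over the 12 libraries.

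Alpha usage was spread more thinly. Trav9-4 led with a mean share of 5.17% (range 1.18 to 17.1%), then Trav9-2 (4.29%), Trav7-4 (3.81%), Trav12-2 (3.80%) and Trav9-1 (3.78%). By subgroup, Trav9 took 15.9%, Trav7 13.4% and Trav14 13.2% of Trav counts. Of the 108 Trav genes, 6 were counted in all 12 T cell libraries and 9 in none of them, against 15 and 0 of the 22 Trbv genes. Trav1, the gene of the invariant alpha chain of mucosal-associated invariant T cells, had 68 counts over the T cell libraries and a mean share of 1.65%. Trav11 and Trav11d had 1 and 14 counts, of which 8 were in replicate 3 at 100 cells.

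The leading gene often differed between replicates, at high as well as low input. At 100 cells Trbv12-2 led replicate 1 with 18.8% of 467 Trbv counts (95% Wilson interval 15.6 to 22.6%). In replicate 2 Trbv13-2 led with 17.3% of 502 (14.3 to 20.9%), and in replicate 3 Trbv3 led with 14.9% of 457 (11.9 to 18.4%). At 10000 cells Trbv13-2 led all 3 libraries with 14.6, 13.9 and 16.1%, and it also led both libraries of 0.1 ng RNA with 21.2 and 20.4%. In the alpha chain at 100 cells, Trav3-3, Trav9-4 and Trav9-2 led 1 library each, with 11.9% of 218 counts (8.27 to 16.9%), 17.1% of 152 (11.9 to 23.9%) and 8.58% of 408 (6.23 to 11.7%). At 10000 cells Trav9-2 led 2 libraries with 7.28 and 5.93% and Trav12-2 the other with 5.77%. At 5 ng Trav9-4, Trav4-2 and Trav6n-6 led 1 library each, with 6.81, 6.70 and 8.22%. At 0.1 ng RNA, Trav15-1-dv6-1 held 26.1% of 69 Trav counts in replicate 1 (17.2 to 37.5%) and Trav16n 22.4% of 58 in replicate 2 (13.6 to 34.7%). Such intervals cover counting error only, since reads without molecular identifiers are not independent molecules.

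**Figure D3:**
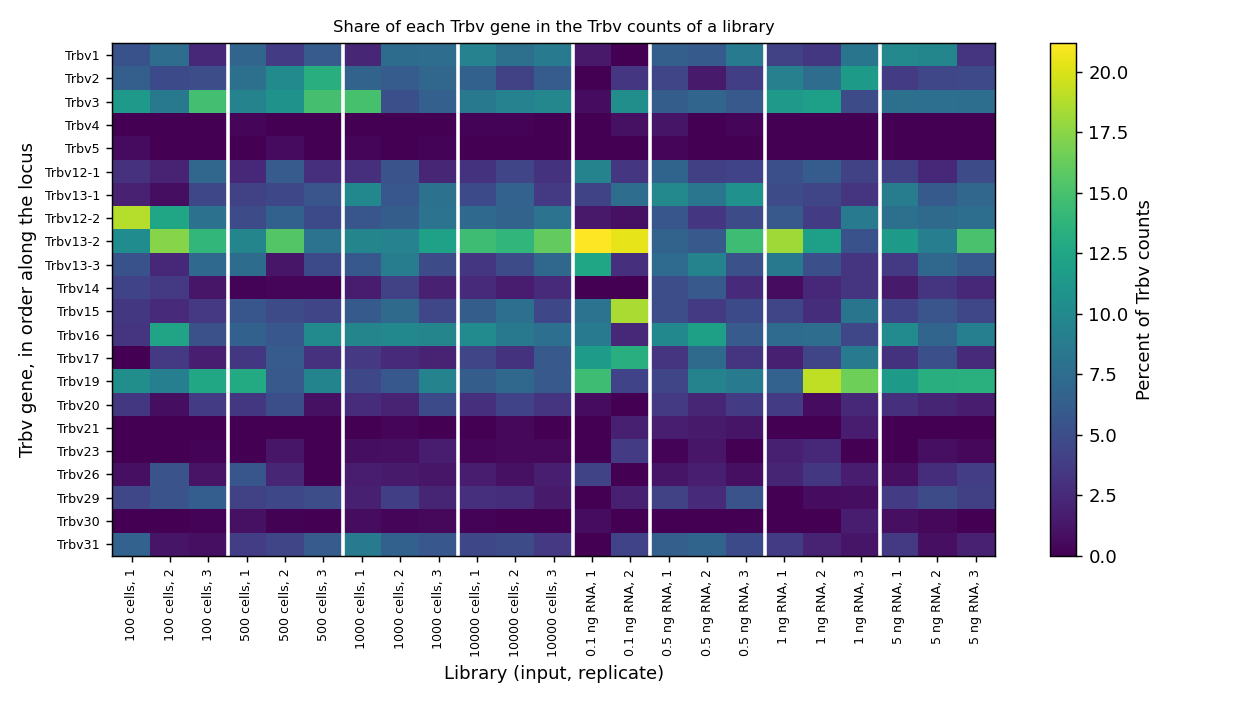
Share of each of the 22 Trbv genes (rows) in the Trbv counts of each of the 23 libraries (columns, grouped by input), with colour giving the percent of Trbv counts. Trbv13-2 is bright in most columns, including all 3 libraries of 10000 cells at 13.9 to 16.1%, and Trbv4 and Trbv5 are dark throughout.

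Replicates shared more of their usage as the cell number grew. The distance between the usage of 2 libraries was taken as the sum of absolute differences of shares divided by its largest possible value, so that 0 means equal shares and 1 no gene in common. For Trbv its mean over the 3 pairs of replicates fell from 0.270 at 100 cells to 0.222 at 500, 0.181 at 1000 and 0.111 at 10000. For Trav it was 0.638, 0.543, 0.385 and 0.338. Without replicate 3 at 100 cells the remaining pair was at 0.274 for Trbv and 0.651 for Trav. With every T cell library thinned to the same number of counts (457 for Trbv and 152 for Trav, means of 100 draws), Trbv distances were 0.270, 0.224, 0.197 and 0.130, and Trav distances 0.652, 0.572, 0.459 and 0.422. The order of the 4 inputs was thus the same at equal counts.

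The coefficient of variation of CPM between replicates had a median over the members tested of 62.1% at 100 cells, 36.7% at 500, 46.7% at 1000 and 27.3% at 10000. Over all genes tested it was 43.7, 26.1, 22.3 and 16.3%. The sets of members differed, with 29, 28, 35 and 31 genes. The first 3 were those tested against 10000 cells, and the 31 those tested at 10000 cells against 5 ng RNA. Most members are low in count: among genes of 5 to 40 CPM, a range chosen after seeing the data, the medians were 47.4, 30.3, 26.1 and 20.7% for members and 54.8, 34.7, 29.0 and 20.3% for all genes. In that range the members' median lay below that of all genes at 100, 500 and 1000 cells and slightly above it at 10000. In the RNA libraries the medians were 31.8% at 0.5 ng, 45.8% at 1 ng and 38.2% at 5 ng, beside 18.6, 15.3 and 11.4% over all genes. They are not over the same genes: 19 and 14 members were those tested at 0.5 and 1 ng against 5 ng. The 5 ng median is over the 31 members tested at 10000 cells against 5 ng, which passed the filter largely through the T cell libraries. At 5 to 40 CPM the 16 members at 0.5 ng had a median of 32.6%, beside 25.4% for all genes. Only 4 and 3 members were in that range at 1 and 5 ng, with medians of 44.7 and 22.4%, beside 20.2 and 13.2% for all genes. At 0.5, 1 and 5 ng the members' median thus lay above that of all genes in this range.

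In the RNA libraries the order of usage by input did not hold. Trbv distances were 0.411 for the 1 pair at 0.1 ng, then 0.192 at 0.5 ng, 0.288 at 1 ng and 0.146 at 5 ng. Trav distances were 0.806, 0.540, 0.589 and 0.490. The 0.5 ng replicates were closer to each other than the 1 ng replicates for both chains, also with libraries thinned to 137 Trbv and 58 Trav counts (0.260 against 0.310 for Trbv and 0.622 against 0.655 for Trav). Without replicate 3 at 1 ng the remaining pair was at 0.208 for Trbv and 0.476 for Trav, and this order reversed for Trav. With thinned counts that pair was at 0.250 for Trbv and 0.572 for Trav, and the order reversed for both chains. No test was made of these distances.

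**Figure D4:**
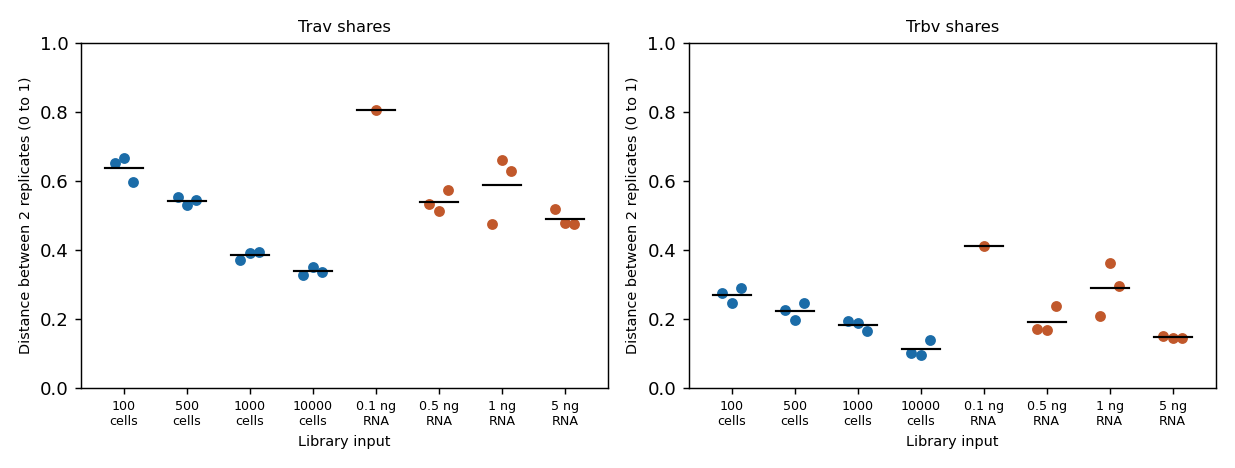
Distance between the usage of 2 replicates for Trav (left) and Trbv (right), from 0 for equal shares to 1 for no gene in common, by library input. Each point is a pair of replicates of 1 group and bars are means over pairs (1 pair at 0.1 ng); the Trbv means fall from 0.270 at 100 cells to 0.111 at 10000 cells.

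The number of genes that would give the same evenness if all were used equally (the inverse Simpson index) rose with cell number for alpha, from 20.0 ± 5.51 at 100 cells to 27.4 at 500, 31.3 at 1000 and 38.0 ± 0.541 at 10000 (n = 3 each). Without replicate 3 the 100-cell mean was 17.4. For beta it was 10.8, 12.7, 13.8 and 13.1. At 0.1 ng RNA it was 8.34 for alpha and 8.26 for beta, the lowest group means of the series for both chains, and at 5 ng it was 28.4 and 12.9.

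Few single members differed between T cell inputs. At 100 cells against 10000 cells 0 of 29 members tested were called by edgeR, as were 0% of all genes, with 3 members at an unadjusted p under 0.05, and DESeq2 called 0. Without replicate 3 at 100 cells 1 of 39 was called, lower, beside 1.79% of all genes: Trav9-2 had no count in replicates 1 and 2 and 35 counts in replicate 3, against 33, 32 and 26 counts at 10000 cells. It was at least 10.8-fold lower with the 2 libraries together set to 3 counts (adjusted p = 0.0413, edgeR). At 500 cells Trbv14 had 0.447, 0.777 and 0.900 CPM against 7.25, 4.13 and 6.76 CPM at 10000 cells, a fall of 1 of 28 members tested (log2 fold change -3.03, SE 0.848, adjusted p = 0.0497, edgeR; 2.46% of all genes were called lower). All 3 values at 500 cells lay below all 3 at 10000. The call was lost when any 1 of the 6 libraries was left out (0 called in each case). Of all genes, 439 of 13674 were called in either direction with all libraries. These were 485 of 15257 to 505 of 15220 without a 500-cell library, and 149 of 14112 to 173 of 14209 without a 10000-cell library. The 500-cell libraries also held more B cell markers, 1515 to 1595 CPM against 340 to 391 CPM, and the part of this in the result was not tested.

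At 1000 cells 3 of 35 members tested were called, all higher, where 1.23% of all genes were called higher. Trbv13-1 had 30.9, 21.0 and 29.2 CPM against 13.4, 17.1 and 9.70 CPM (log2 fold change 1.02, SE 0.299, adjusted p = 0.0494, edgeR). Trbv31 had 27.5, 23.9 and 21.2 CPM against 12.8, 12.7 and 9.41 CPM (1.07, SE 0.307, adjusted p = 0.0451, edgeR), and Trav7-4 had 12.3, 14.7 and 13.2 CPM against 5.58, 4.13 and 3.53 CPM (1.61, SE 0.457, adjusted p = 0.0429, edgeR). None of the 3 overlapped between the groups. Trac itself was higher at 1000 cells by 0.24 (SE 0.0579, adjusted p = 0.0102, edgeR). Leaving out replicate 2 or 3 at 1000 cells left 1 call, and leaving out any of the other 4 libraries left 0. Of all genes, 438 of 13415 were called in either direction with all libraries. These were 395 of 15031 to 411 of 15001 without a 1000-cell library, and 181 of 13663 to 217 of 13698 without a 10000-cell library.

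T cells held more of the variable genes than the diluted RNA, as they did of the constant genes. At 10000 cells against 5 ng RNA, 29 of 31 members tested were higher (13 of 14 Trav and 16 of 17 Trbv) and none was lower, where 28.7% of all genes were called higher and 27.3% lower. The 17 Trbv and 14 Trav genes that passed the filter did so largely through the T cell libraries, so their count is not a count over all members. Trbv13-2 had 39.9 ± 3.66 CPM against 7.39 ± 1.70 CPM (log2 fold change 2.31, SE 0.217, adjusted p = 2.62e-14, edgeR). Trav14-2 had 21, 27 and 9 counts at 10000 cells and 2, 3 and 0 counts at 5 ng (4.32, SE 0.764, adjusted p = 2.12e-06, edgeR). Among the other large rises were Trav14-3 and Trav7-6, each with 2 counts in 1 of the 3 libraries at 5 ng, and Trav13n-1. Trac was higher by 1.92 and Trbc2 by 2.12. The beta ratio of variable to constant counts was 0.197 ± 0.0135 in the T cells and 0.194 ± 0.00281 in the RNA (n = 3 each), ranges of 0.187 to 0.212 and 0.192 to 0.197. The alpha ratio was higher in the T cells, at 0.201 ± 0.0202 against 0.159 ± 0.0164. Its ranges, 0.184 to 0.223 and 0.140 to 0.170, did not overlap, and this difference was not tested. The background of olfactory and vomeronasal genes was 0.624 CPM per kilobase at 10000 cells and 0.0376 at 5 ng. Trav genes had 3.29 and 0.633 CPM per kilobase in the same libraries. The part of this background in the alpha ratios was not tested. Usage was alike: mean Trbv shares of the 2 groups had a Spearman rho of 0.929 over 22 genes and a distance of 0.129, and mean Trav shares 0.819 over 108 genes and 0.276, as descriptions. The 2 groups also differed in Y-linked genes and cell types as given above, and these cannot be told apart from the material.

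The counts of alpha genes were low where a gene's whole sequence also occurs in other genes. For each gene the share of its 50-base words that also occur in the transcripts of another gene was computed. The 38 Trav genes with all words shared took 134 counts in the 12 T cell libraries, which is 3.06% of Trav counts, with a median of 2 counts per gene. The 29 genes with at least 50% but not all words shared took 34.6% (median 43 counts), and the 41 genes with less took 62.4% (median 52 counts). The medians of these last classes were thus close, and 2 of the 41 genes had under 10 counts, 1 of them none. Over the 108 genes Spearman's rho between counts and the percent of words shared was -0.695, as a description. The genes without d or n in their symbols, 46 in all, took 72.3% of Trav counts, the 34 d copies 13.0% and the 28 n copies 14.7%.

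The sequences given above are examples. Trav9-2 had 204 counts in the T cell libraries and shared 46.7% of its words. Trav9d-2 and Trav9n-2, identical to each other in the stretch shown, had 2 and 7 counts, and Trav11 and Trav11d had 1 and 14. How the authors' counting treated reads that match several genes is not given in the sources used here, so counts of single genes with shared sequence are uncertain. Among the Trbv genes 17 of 22 shared no word with another gene, and their median was 317 counts. Trbv4 and Trbv5, which together with Trbv21 had the fewest counts of the beta genes, shared 72.1% and 77.4% of their words with 5830405F06Rik, a gene model outside the list.

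**Figure D5:**
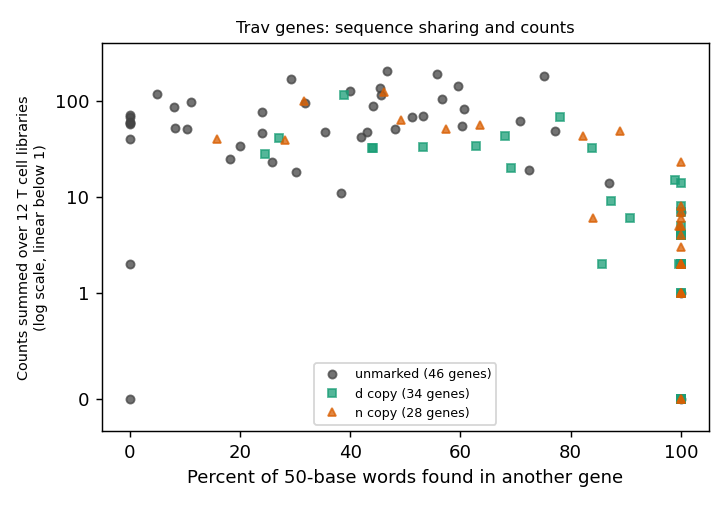
Counts summed over the 12 T cell libraries (log scale, linear below 1) against the percent of 50-base words found in another gene, for the 108 Trav genes by type of copy. Genes with all words shared, at the right edge, have at most 23 counts each, while most genes further left have more than 10.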

How the data were processed

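The files hold raw read counts per gene symbol, deposited by the authors without normalization, for 22488 genes and 23 libraries. Per the submitters' processing notes, HISAT2 2.1.0, featureCounts and the mouse build mm8 were used; the treatment of reads that match several genes, and of strand and mates, is not given in the sources used here. Even numbers made up 57.9 to 70.7% of a library's counts above 0. Reference sequences and lengths come from GENCODE M21 (GRCm38), matched by symbol only, and no coordinates are given since the builds differ.

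CPM is a count divided by the library total, scaled to the usual common total. Groups follow the labels and the numbers of libraries are 3 per group, 2 at 0.1 ng. Nothing in the labels ties replicates to separate animals, so p-values measure the spread between these libraries, which may be technical. Tests used edgeR 4.0.16 in R 4.3.3 (quasi-likelihood, TMM factors, filterByExpr, Benjamini-Hochberg over all genes tested, threshold 0.05), with the 2 groups compared in each fit. They were tested on simulated data: of 100 genes changed 4-fold, 96% were recovered at 0.5 against 5 ng among 12558 genes and 25% at 100 against 10000 cells among 14099. The simulation gave every gene a common dispersion (spread beyond counting error). The members varied more than all genes by median, so these percentages do not describe recovery of the members. Alternatives were DESeq2 1.42.0, its size factors, no filter, all groups in 1 fit, a replicate block and leaving out each replicate. Usage was thinned without replacement, with 100 draws. Wilson intervals are at 95%, and a count of 0 was set to a floor of 3 counts over the group.

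Named genes are the 5 Trav and 8 Trbv genes of highest mean share in T cells, up to 4 largest rises and falls called per comparison, the leading genes of libraries, genes of invariant receptors and the other genes of the receptor. Trbv12-1, Trbv16, Trbv13-3 and other called genes are named where their count was given. The members and lists were chosen with earlier results of these data known. Trgc1, Trgc2 and Trgc4 were not used here.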

Additional observations from a re-analysis of the deposited data

How the results depend on the processing

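The calls of single members depended on the processing more than the levels did. At 0.5 against 5 ng the 8 calls were 15 with DESeq2 (1324 of 20186 genes called) and 0 with all RNA groups in 1 fit (34 of 13948). With 1 replicate left out they were 3 to 9, beside 172 to 815 calls over all genes. At 1000 against 10000 cells the 3 calls were 0 with no filter, 0 with all T cell groups in 1 fit and 0 to 1 with 1 replicate left out. The 1 call at 500 cells stayed 1 with DESeq2. It was 0 with DESeq2 size factors (423 of 13674 genes called) and with no filter (602 of 21680). It was also 0 with all T cell groups in 1 fit (30 of 15128) and with any 1 replicate left out. At 0.1 ng the 0 calls were 2 with DESeq2 (2946 of 20246 genes called), 3 with all RNA groups in 1 fit (3395 of 13948) and 0 to 7 with 1 replicate left out, and at 100 cells 0 to 1. At 10000 cells against 5 ng RNA the 29 calls (8073 of 14425 genes called) were 18 with all groups in 1 fit (4269 of 18836). With 1 replicate left out they were 26 to 33. The cause was not tested in any of these cases. With the replicate number as a block the calls were 0 at 100, 500 and 1000 cells, 0 at 0.1 and 1 ng, 8 at 0.5 ng and 26 at 10000 cells against 5 ng RNA. Of all genes the block fits called 2 of 14099, 496 of 13674 and 442 of 13415 at 100, 500 and 1000 cells. At 0.1, 0.5 and 1 ng they called 392 of 13982, 704 of 12558 and 33 of 12616, and 7778 of 14425 at 10000 cells against 5 ng RNA. The numbers did not pair the libraries, since residuals of same-numbered libraries correlated at -0.016 to 0.020 over genes. The beta ratio of variable to constant counts at 0.1 ng, 0.386 as a mean, was 0.577 without replicate 1 and 0.196 without replicate 2. With genes summed to subgroups the effective number was, for Trav, in ascending order of input 8.98, 9.27, 10.2 and 10.7 for T cells and 6.60, 10.0, 10.1 and 10.0 for RNA, and for Trbv, in ascending order of input 8.12, 9.36, 8.58 and 8.59 for T cells and 5.41, 8.51, 8.23 and 8.28 for RNA. Subgroup distances were, for Trav, in ascending order of input 0.363, 0.243, 0.152 and 0.140 for T cells and 0.578, 0.295, 0.323 and 0.260 for RNA, and for Trbv 0.217 (100 cells), 0.182 (500 cells), 0.141 (1000 cells), 0.379 (0.1 ng) and 0.124 (5 ng). Thinning moved the effective number of Trav genes to 27.8 (1000 cells), 32.8 (10000 cells), 20.2 (0.5 ng) and 21.4 (5 ng), Trav distances to 0.572 (500 cells), 0.459 (1000 cells), 0.422 (10000 cells), 0.806 (0.1 ng), 0.622 (0.5 ng) and 0.606 (5 ng) and Trbv distances to 0.416 (0.1 ng), 0.260 (0.5 ng) and 0.217 (5 ng). With 1 replicate left out, Trav distances were in ascending order of input 0.596 to 0.668, 0.531 to 0.553, 0.369 to 0.394 and 0.328 to 0.350 for T cells and 0.513 to 0.574, 0.476 to 0.660 and 0.475 to 0.518 for RNA of 0.5, 1 and 5 ng, and Trbv distances in ascending order of input 0.247 to 0.290, 0.197 to 0.244, 0.163 to 0.194 and 0.0938 to 0.137 for T cells and 0.168 to 0.238, 0.208 to 0.362 and 0.143 to 0.151 for RNA of 0.5, 1 and 5 ng. In members with less than 50% of words shared, a choice made after seeing the data, Trav genes summed in ascending order of input to 55.9, 76.3, 103 and 93.0 for T cells and 18.2, 32.0, 19.2 and 18.6 for RNA (CPM). At 0.1 ng Trav genes summed to 32.8 CPM with TMM-scaled totals and 31.4 CPM over members with at least 10 counts, and with TMM-scaled totals Trbv genes summed to 232 CPM at 500 cells and 67.1 CPM at 5 ng. The median coefficients of variation of members moved to the values at 5 to 40 CPM given above: 47.4% (100 cells), 30.3% (500 cells), 26.1% (1000 cells), 20.7% (10000 cells), 32.6% (0.5 ng), 44.7% (1 ng) and 22.4% (5 ng). Depth limits the alpha genes most, with 58 to 540 Trav counts in a library.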

Other observations

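Genes of the other T cell receptor and of receptor assembly were counted at low levels. Trdc, the constant gene of the delta chain, had 32.3 ± 10.3 CPM at 10000 cells and 11.3 ± 3.27 CPM at 5 ng RNA (n = 3 each). The 5 Trdv genes summed to 1.73 ± 1.58 and 2.37 ± 0.852 CPM, and Trgv2, the gamma variable gene in the table, had 2.74 ± 1.91 and 1.16 ± 0.385 CPM. At 0.5 ng the Trdv genes summed to 1.87 ± 0.881 CPM, within the spread at 5 ng. Trgv2 had 3.12 ± 0.852 CPM at 0.5 ng (range 2.16 to 3.78), above the range of 0.877 to 1.60 CPM at 5 ng, and did not pass the test (log2 fold change 1.41, SE 0.732, adjusted p = 0.314, edgeR). Rag1 and Rag2, the recombinase that joins the segments, had 3.94 ± 1.95 and 2.20 ± 1.66 CPM at 10000 cells. Dntt, which adds bases at the joints, had 11.6 ± 1.93 CPM, and Ptcra, the partner of the beta chain in immature thymocytes, 0.578 ± 0.588 CPM.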
